A study of Rattus norvegicus with 9 samples.

Results

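Phagocytic clearance, the removal of dying cells and debris by other cells, was followed through 10 of its genes in rat striatum after intracerebral hemorrhage and under edaravone dexborneol. They are the TAM receptors Axl, Mertk and Tyro3, the bridging ligands Gas6, Pros1 and Mfge8, the engulfment receptors Megf10 and Lrp1, and the restraining pair Cd47 and Sirpa. The members were taken by gene name from the deposited count files, where all 10 were found among 22890 genes. The RNA came from striatum and makes up 9 libraries, with 3 in each group. The groups are Sham (the control group), ICH (rats with bleeding into the brain tissue) and EDB. EDB is named for edaravone dexborneol, which combines the radical scavenger edaravone with dexborneol. The labels give no strain, sex, age, dose or time, and they do not say whether EDB rats also bled, so EDB was set against both other groups. They also do not say that the libraries of a group are from separate animals, so the p-values measure only the spread between these libraries.

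As background, a dying cell shows phosphatidylserine on its surface, and Gas6 or Pros1 bridges that lipid to the TAM receptor kinases on the engulfing cell. Mfge8 bridges the same lipid to integrins instead. In the brain, Axl and Mertk are known from microglia and astrocytes and Tyro3 mainly from neurons, while Megf10 is an astrocyte receptor for synapse and debris uptake. Lrp1 is a large endocytic receptor whose cargo includes the haem carrier hemopexin. Cd47 on a healthy cell, red blood cells included, binds Sirpa on the phagocyte and restrains uptake.

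Library totals ran from 14658110 to 17659936 counts. Levels are given as CPM, counts scaled to a fixed library size by the TMM method, and the share of counts from 13 mitochondrial genes ran from 2.93% to 12%. Markers of striatal projection neurons were present in every library. Over 7 genes they summed to 6671 to 11120 CPM in Sham, 4792 to 6230 in ICH and 7215 to 8042 in EDB. Of the 7, 3 were called lower in ICH against Sham, where 7.3% of all genes were, and 0 in EDB against ICH. Some libraries stood apart from their group. Liver markers summed to 201 and 199 CPM in Sham 1 and Sham 3 and to 3.03 to 32.4 CPM in the other 7 libraries. Choroid plexus markers summed to 7438 CPM in EDB 3 and to 28.4 to 78.7 CPM elsewhere. Erythroid markers, in the order of replicates, summed to 139, 1070 and 68.6 CPM in ICH and to 1345, 271 and 1298 CPM in EDB. In Sham they summed to 548 to 734 CPM, and their part in the member levels was not tested. In bulk tissue, fewer cells of a type and less RNA per cell cannot be told apart.

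Of the 10 members, 9 passed the low-count filter and 5 of these rose in ICH against Sham, namely Axl, Mertk, Pros1, Megf10 and Sirpa (edgeR quasi-likelihood test, adjusted p under 0.05 over all genes). None fell, where 7.3% of all genes did, and Tyro3, Gas6, Lrp1 and Cd47 were not called. Among all 14274 genes tested, 18.7% were called in that comparison and 11.4% were called higher. At an unadjusted p under 0.05 there were 6 of 9 members and 31.5% of all genes. The libraries of ICH and Sham did not overlap for 7 of 9 members and for 35.6% of all genes. The median log2 fold change was 0.51 over the 9 members and 0.01 over all tested genes. Between EDB and ICH no member was called, where 0.687% of all genes were, 0.056% higher and 0.631% lower. In EDB against Sham only Axl was called, and it was higher. Of all genes 7.66% were called there, 4.95% higher and 2.71% lower. At an unadjusted p under 0.05 stood 5 of 9 members and 22.9% of all genes, and for 4 of 9 members, against 26.1% of all genes, the libraries did not overlap. Changes are log2 fold changes ± SE with 3 libraries against 3.

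**Figure D1:**
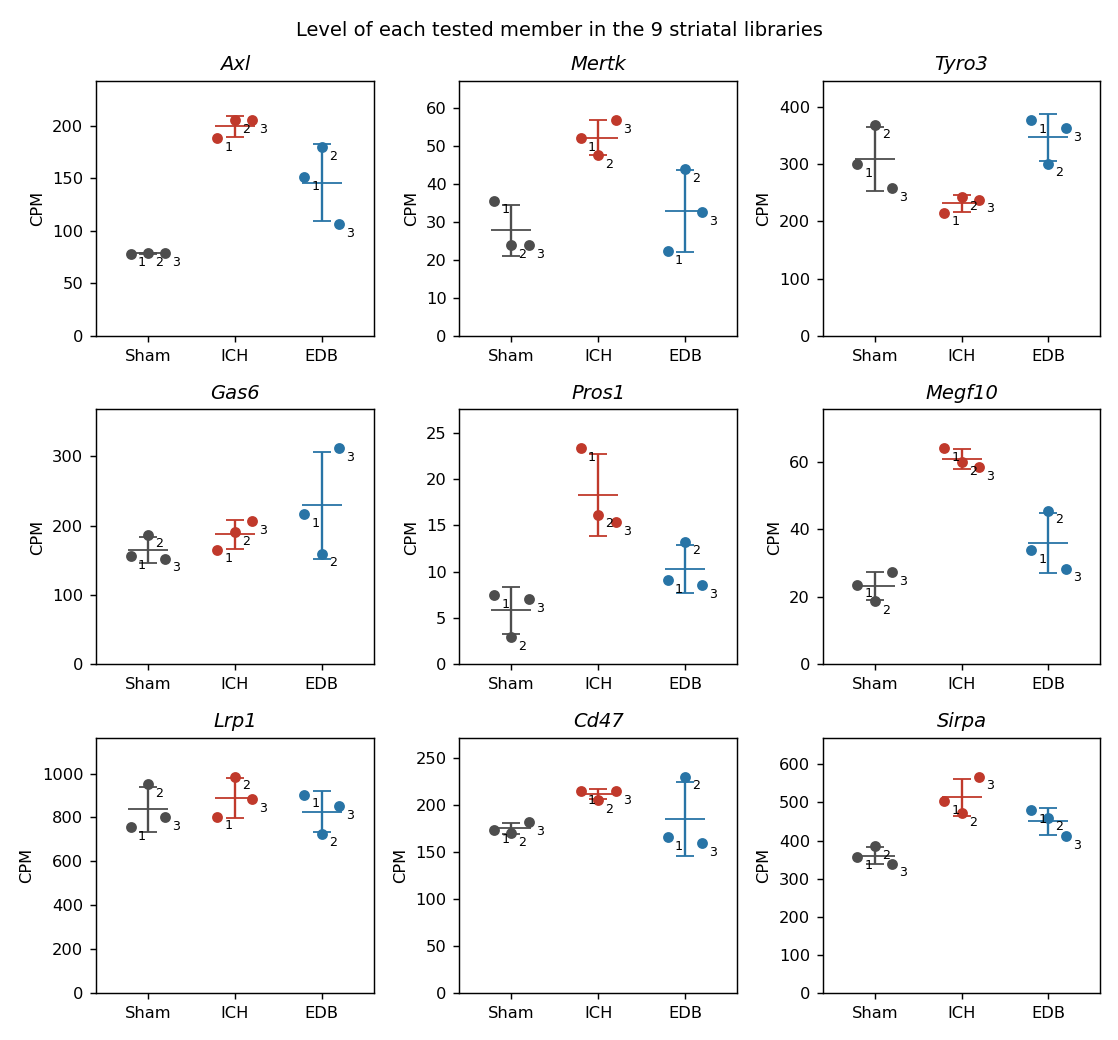
CPM (y axis, from 0) of the 9 tested members in Sham, ICH and EDB (x axis). Points are libraries labelled by replicate number, and bars are the mean ± SD of 3 libraries. Axl, Mertk, Pros1, Megf10, Sirpa and Cd47 are higher in all 3 ICH libraries than in all 3 Sham libraries, and Tyro3 is lower. Of these, Cd47 and Tyro3 were not called.

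Of the TAM receptors, Axl and Mertk rose in ICH against Sham and Tyro3 was not called. In the order of replicates 1 to 3, Axl levels in Sham were 78.2, 78.7 and 78.7 CPM. They were 188, 205 and 205 CPM in ICH and 151, 179 and 106 CPM in EDB. The Sham values were almost equal, every ICH value was above every EDB value, and every EDB value was above every Sham value. Axl rose 2.54-fold in ICH against Sham (1.34 ± 0.17, adjusted p = 0.000271), with all 19 alternative analyses keeping the call. It also rose 1.85-fold in EDB against Sham (0.89 ± 0.16, adjusted p = 0.00838), a call lost only when both Sham 1 and Sham 3 were left out (0.86, adjusted p = 0.161). Between EDB and ICH its log2 fold change was -0.45 ± 0.16 (adjusted p = 0.207), with a 95% interval of -0.81 to -0.10.

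Mertk, which carries much of the daily clearance by resting microglia, stood at 35.6, 23.8 and 23.9 CPM in Sham, at 52.1, 47.6 and 56.8 CPM in ICH and at 22.3, 43.9 and 32.6 CPM in EDB. All ICH values were above all others, and the EDB values spread across the Sham range and beyond it on both sides. Mertk rose 1.88-fold in ICH against Sham (0.91 ± 0.24, adjusted p = 0.0215). Leaving out any one of Sham 2, Sham 3, ICH 1 and ICH 3 ended the call, with adjusted p-values of 0.0572 to 0.0792 and log2 fold changes of 0.81 to 0.91. It was also lost without Sham 2 and ICH 1 together (0.81, adjusted p = 0.119) and without Sham 1 and Sham 3 together (1.07, adjusted p = 0.0683). EDB differed from ICH by -0.66 ± 0.24 (adjusted p = 0.204) and from Sham by 0.25 ± 0.24 (adjusted p = 0.587), and neither was called.

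Tyro3, the TAM receptor of neurons, stood at 300.3, 369 and 258 CPM in Sham, at 215, 243 and 238 CPM in ICH and at 377, 301 and 363 CPM in EDB. ICH was the low group, below every library of the other groups, while Sham and EDB overlapped. Its log2 fold change in ICH against Sham was -0.41 ± 0.15 (adjusted p = 0.0784), which was not called. The call was reached with DESeq2 (-0.44, adjusted p = 0.0354) and without Sham 3 (-0.53, adjusted p = 0.0419) or without Sham 1 and Sham 3 together (-0.73, adjusted p = 0.0212). EDB against ICH gave 0.58 ± 0.15 (adjusted p = 0.0969), called with DESeq2 (adjusted p = 0.012) and without Sham 2 (adjusted p = 0.041). EDB against Sham gave 0.17 ± 0.15, with an interval of -0.16 to 0.49.

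Beside these receptor levels, the summed neuron markers were lower in ICH, at 2050 to 2409 CPM over 8 genes, than in Sham (2609 to 3303) or EDB (2605 to 2866). The most abundant, Eno2, had a mean of 930 CPM in ICH and 1248 in EDB. Of the 8, 3 were called lower in ICH against Sham, where 7.3% of all genes were. In EDB against ICH 0 were called, and Syt1 (-0.16) and Map2 (-0.26) were lower in EDB while the others were higher. Summed striatal projection neuron markers were also lower in every ICH library than in every Sham or EDB library. Summed pan-myeloid markers went the other way, at 766 to 951 CPM in ICH, 128 to 168 in Sham and 339 to 617 in EDB. Summed oligodendrocyte markers were highest in EDB, at 38610 to 44160 CPM over 8 genes, against 17060 to 27910 in Sham and 16490 to 32880 in ICH. Much of this sum was Mbp, with a mean of 25248 CPM in EDB and 14456 in ICH. Of the 8 markers, 0 were called in EDB against ICH and 1 was called higher in EDB against Sham. The part of these shifts in the receptor levels was not tested.

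The 250 bases before the annotated start of each TAM receptor gene are shown because the receptors that rose and the one that was not called are set side by side here. Sequences are from RefSeq on GRCr8, read 5′ to 3′ on the gene's strand. Capitals mark matches to an AP-1 pattern (TGANTCA, with N for any base) and to Sp1 GC boxes (GGGCGG), searched on both strands.
Axl (chr1:90424010-90424259, minus strand): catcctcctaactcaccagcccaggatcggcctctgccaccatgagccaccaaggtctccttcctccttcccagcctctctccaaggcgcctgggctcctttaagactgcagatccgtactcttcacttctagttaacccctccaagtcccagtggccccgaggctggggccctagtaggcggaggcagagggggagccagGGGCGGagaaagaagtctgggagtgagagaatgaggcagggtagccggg
Mertk (chr3:136392324-136392573, plus strand): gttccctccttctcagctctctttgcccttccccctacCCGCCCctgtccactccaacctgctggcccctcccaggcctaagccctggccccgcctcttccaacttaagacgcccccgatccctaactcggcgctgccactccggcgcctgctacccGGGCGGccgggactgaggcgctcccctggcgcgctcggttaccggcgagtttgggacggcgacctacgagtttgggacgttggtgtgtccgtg
Tyro3 (chr3:127231653-127231902, plus strand): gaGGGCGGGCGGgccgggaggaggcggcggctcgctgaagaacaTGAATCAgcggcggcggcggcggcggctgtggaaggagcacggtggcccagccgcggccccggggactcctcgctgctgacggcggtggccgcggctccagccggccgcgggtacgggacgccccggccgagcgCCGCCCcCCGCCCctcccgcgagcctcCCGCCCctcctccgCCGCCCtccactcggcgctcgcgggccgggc

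The 3 promoters differ in base composition, with 61.6% G and C in Axl, 68% in Mertk and 82% in Tyro3, against a median of 51.2% over 33469 rat promoters. GC boxes numbered 1 in Axl, 2 in Mertk and 6 in Tyro3, of which the pair at 248 and 244 bases before the start overlap, and 30.5% of all promoters hold at least 1. Tyro3 alone of the 3 held a match to the AP-1 pattern TGANTCA, 206 bases before the start, as do 6.34% of promoters. Its letters are TGAATCA, and it overlaps a match, TGAATCAGC, to the antioxidant response pattern TGANNNNGC (in 34.7%). Both patterns allow any base after TGA, so a match does not identify a site of either kind. Axl held 1 match to the PU.1 motif GAGGAAG, 191 bases before the start, a motif in 10.2% of promoters. Neither the E-box CACGTG (5.59% of promoters) nor the STAT palindrome TTCNNNGAA (7.67%) was found in these 3 windows. A match describes letters and not binding. Promoters of 8 members were matched, without Megf10 and Sirpa, and among the remaining 5 windows only that of Pros1 held a STAT palindrome, TTCCAGGAA, 113 bases before the start.

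Of the bridging ligands, Pros1 rose in ICH against Sham and Gas6 was not called. Pros1 encodes protein S, an anticoagulant cofactor that also binds Tyro3 and Mertk, and it stood at 7.50, 2.94 and 7.08 CPM in Sham, at 23.3, 16.2 and 15.3 CPM in ICH and at 9.09, 13.2 and 8.56 CPM in EDB. The groups did not overlap, with EDB between Sham and ICH. Pros1 rose 3.12-fold in ICH against Sham (1.64 ± 0.34, adjusted p = 0.00629), the largest fitted change of the tested members in that comparison. It kept its call in all 19 alternatives, with log2 fold changes from 1.11 without Sham 2 and ICH 1 to 2.58 without Sham 1 and Sham 3. EDB differed from ICH by -0.83 ± 0.33 (adjusted p = 0.242) and from Sham by 0.82 ± 0.34 (adjusted p = 0.171).

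The liver makes most circulating protein S, and Sham 1 and Sham 3, with the higher Sham values of Pros1, were the libraries with 166 and 165 CPM of albumin transcripts (Alb). Sham 2 held 3.21 CPM of Alb. ICH 1, with the highest Pros1 level, held 2.27 CPM of Alb. The part of liver transcripts in the Pros1 levels was not tested.

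Gas6, the ligand of all TAM receptors and the main one for Axl, stood at 156, 187 and 153 CPM in Sham, at 165, 191 and 207 CPM in ICH and at 217, 159.7 and 312 CPM in EDB. The 3 groups overlapped. Log2 fold changes were 0.19 ± 0.21 in ICH against Sham (interval -0.28 to 0.65), 0.29 ± 0.21 in EDB against ICH and 0.47 ± 0.21 in EDB against Sham (adjusted p = 0.206). The highest value was that of EDB 3, the library with choroid plexus transcripts, and without it the EDB differences were 0.0023 against ICH and 0.19 against Sham. Whether those transcripts bear on the Gas6 level was not tested.

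Mfge8 could not be compared. Its counts were 2, 2 and 0 in Sham, 0, 1 and 0 in ICH and 0, 3 and 0 in EDB, which sum to 4, 1 and 3. No library exceeded 3 counts, the limit that a count of 0 allows, which corresponds to 0.162 to 0.212 CPM by library. The low-count filter removed it, and no fold is given. Whether the authors' annotation and counting captured reads of this gene cannot be settled from the count files, so these counts do not show how much Mfge8 RNA the tissue held.

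Of the engulfment receptors, Megf10 rose in ICH against Sham and Lrp1 was not called. Megf10 stood at 23.6, 18.7 and 27.3 CPM in Sham, at 63.9, 59.9 and 58.3 CPM in ICH and at 33.8, 45.5 and 28.3 CPM in EDB. The groups did not overlap and ICH was the tightest of them. Megf10 rose 2.62-fold in ICH against Sham (1.39 ± 0.19, adjusted p = 0.000537), a call kept in all 19 alternatives. EDB against ICH gave -0.76 ± 0.19 (adjusted p = 0.0927, interval -1.17 to -0.35), which was called with DESeq2 (adjusted p = 0.0104) and without Sham 2 (adjusted p = 0.0497). EDB against Sham gave 0.63 ± 0.19 (adjusted p = 0.0683), called with DESeq2 (adjusted p = 0.0229) and without EDB 3 (0.78, adjusted p = 0.0384). Summed astrocyte markers were 3554 to 4259 CPM in Sham, 8362 to 8522 in ICH and 5707 to 6638 in EDB over 8 genes, of which only 2 were called higher and 1 lower in ICH against Sham. The sum followed 1 gene, Gfap, at 403 to 544 CPM in Sham, 4544 to 5165 in ICH and 2804 to 3770 in EDB. The other 7 markers summed to 3048 to 3856 CPM in Sham, 3196 to 3978 in ICH and 2868 to 2918 in EDB, so Sham and ICH overlapped and EDB was the lowest group. The part of these markers in the Megf10 values was not tested.

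Lrp1 stood at 757, 953 and 803 CPM in Sham, at 804, 985 and 883 CPM in ICH and at 903, 726 and 853 CPM in EDB, and all 3 groups overlapped. Its log2 fold changes were 0.09 ± 0.14 in ICH against Sham, -0.11 ± 0.14 in EDB against ICH and -0.02 ± 0.14 in EDB against Sham. The intervals ran from -0.22 to 0.40, from -0.42 to 0.21 and from -0.33 to 0.30. Changes within these bounds are compatible with the 3 libraries a group.

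Of the restraining pair, the receptor rose and its ligand was not called. Sirpa, which recruits the phosphatases Ptpn6 and Ptpn11, stood at 357, 385 and 339 CPM in Sham, at 503, 471 and 567 CPM in ICH and at 479, 459.6 and 411 CPM in EDB. All ICH and all EDB values were above all Sham values, while ICH and EDB overlapped. Sirpa rose 1.43-fold in ICH against Sham (0.51 ± 0.12, adjusted p = 0.013), a call that ended when Sham 1, Sham 3 or ICH 3 was left out, with adjusted p-values of 0.0501 to 0.0686. Without Sham 1 and Sham 3 together it was 0.36 (adjusted p = 0.197). EDB against ICH gave -0.19 ± 0.12 and EDB against Sham 0.32 ± 0.12 (adjusted p = 0.137). Reads shared with the related Sirpb genes or with the annotated pseudogene of Sirpa carry an uncertainty that was not measured.

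Cd47 stood at 174, 170.3 and 182 CPM in Sham, at 215, 205 and 215 CPM in ICH and at 166, 230.3 and 159 CPM in EDB. The ICH values all exceeded the Sham values by a small margin, and EDB held both the highest and the lowest value of the series. Log2 fold changes were 0.27 ± 0.14 in ICH against Sham (adjusted p = 0.215), -0.19 ± 0.14 in EDB against ICH and 0.08 ± 0.14 in EDB against Sham. Without EDB 2 the last of these was -0.11.

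**Figure D2:**
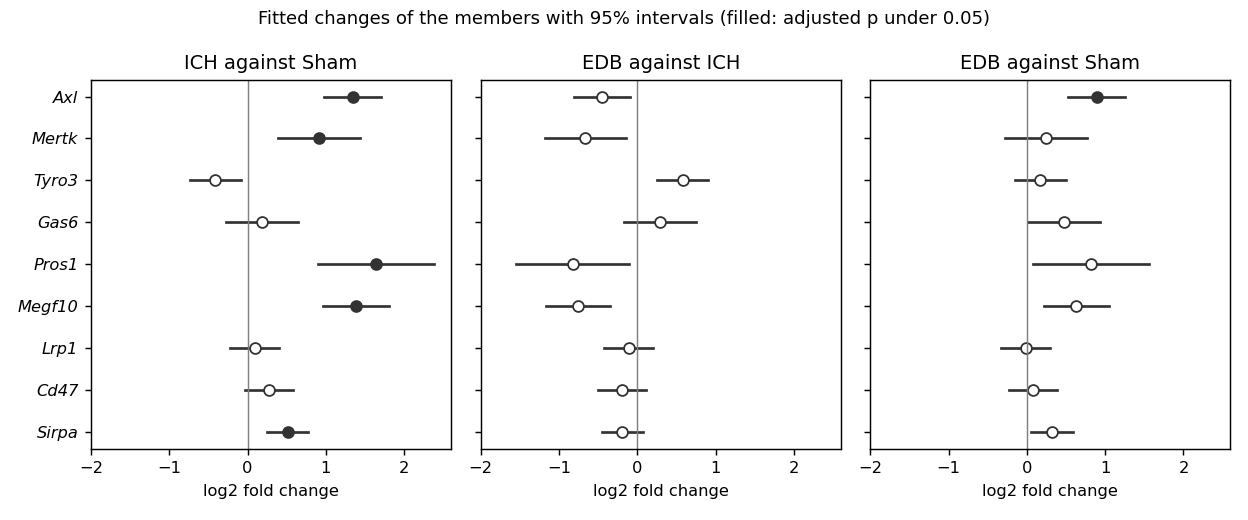
Log2 fold change (x axis) of the 9 tested members (y axis) in the 3 comparisons, with 95% intervals from the edgeR fit. Filled points have an adjusted p under 0.05, which are 5 members in ICH against Sham, 0 in EDB against ICH and Axl in EDB against Sham.

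In EDB against ICH, the count of 0 called members by edgeR stood beside 5 members at an unadjusted p under 0.05, where 16.2% of all genes were. Those were Axl, Mertk, Pros1 and Megf10, lower in EDB, and Tyro3, higher in EDB. DESeq2 called 2 members, Tyro3 and Megf10, and limma-voom called 0. Among all 14274 genes, DESeq2 called 696 and limma-voom 182 in this comparison, against 98 with edgeR. The libraries of EDB and ICH did not overlap for these same 5 members, against 25.2% of all genes. The mean of EDB lay between those of Sham and ICH for 6 of 9 members, above both for Tyro3 and Gas6 and below both for Lrp1. The comparisons share libraries, so these positions are not independent of one another. They also have no share over all genes beside them.

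The EDB libraries differed among themselves more than those of the other groups for 5 of 9 members. The counts in this paragraph have no share over all genes beside them, so they are not read as traits of these members. The coefficient of variation of Axl was 25.3% in EDB against 0.336% in Sham and 4.96% in ICH, and that of Cd47 was 21.2% against 3.34% and 2.55%. The Sham counts of Axl, 1252, 1150 and 1112, carry a counting error larger than 0.336%, so that value does not measure the Sham spread. EDB 2 held the highest EDB level of 5 members, Axl, Mertk, Pros1, Megf10 and Cd47, and the lowest EDB level of 3, Tyro3, Gas6 and Lrp1. Its summed pan-myeloid level, 608 CPM, was close to the 617 CPM of EDB 1, whereas EDB 3 stood at 339 CPM. Its summed homeostatic microglia level, 1611 CPM, was the highest of the EDB libraries, above 1352 CPM in EDB 1 and 881 CPM in EDB 3. The part of these markers in the spread of the EDB libraries was not tested.

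**Figure D3:**
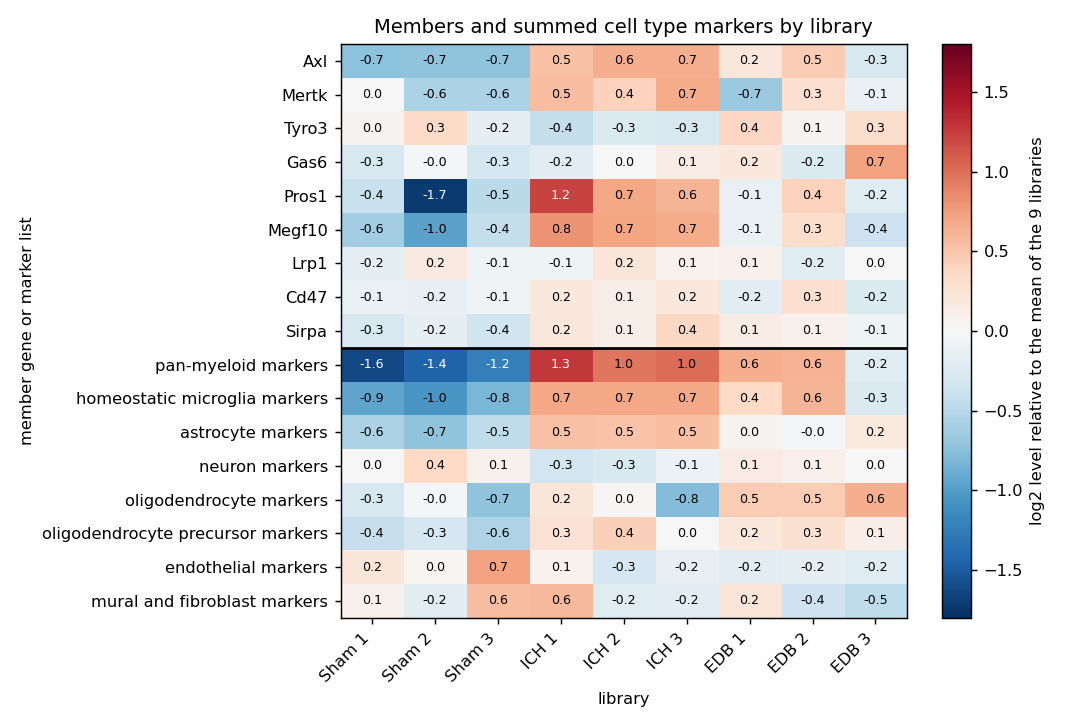
Log2 level relative to the mean of the 9 libraries (colour and printed value) for the 9 tested members and for summed markers of 8 cell classes (rows), by library (columns). Pan-myeloid and microglial markers are above their mean in all 3 ICH libraries and below it in all 3 Sham libraries, as are the astrocyte sum (through Gfap), Axl, Megf10, Pros1, Cd47 and Sirpa, and neuron markers and Tyro3 are below their mean in all 3 ICH libraries.

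Ratios of 2 members' counts within a library do not depend on how libraries are scaled. A ratio holds the unequal lengths of both transcripts, so only its change between groups is read here, and no test was made. The Axl to Tyro3 ratio was 0.261, 0.213 and 0.305 in Sham, 0.874, 0.845 and 0.861 in ICH and 0.400, 0.597 and 0.294 in EDB. Its mean log2 value was 1.74 higher in ICH than in Sham with no overlap, and it was 1.06 lower in EDB than in ICH, again with no overlap. Axl and Tyro3 each separated EDB from ICH on their own and in opposite directions, so the latter separation is not a further result. The ICH libraries were nearly identical in this ratio, with an SD of 0.0145 around a mean of 0.860. Their counts, 3225 to 3802 for Axl and 3691 to 4414 for Tyro3, carry a counting error larger than that. The closeness therefore does not measure the ICH spread.

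The Mertk to Tyro3 ratio was 0.118, 0.0646 and 0.0926 in Sham, 0.242, 0.196 and 0.238 in ICH and 0.0590, 0.146 and 0.0898 in EDB, so ICH stood apart and EDB overlapped Sham. The Axl to Gas6 ratio was 0.502, 0.421 and 0.516 in Sham, 1.14, 1.07 and 0.992 in ICH and 0.696, 1.12 and 0.342 in EDB. Every ICH library was above every Sham library in this ratio of receptor to ligand, while EDB spanned both groups. Between the ligands, the Gas6 to Pros1 ratio was 20.8, 63.6 and 21.6 in Sham and 7.09, 11.8 and 13.5 in ICH, without overlap, and 23.8, 12.1 and 36.4 in EDB.

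The Cd47 to Sirpa ratio was 0.486, 0.443 and 0.536 in Sham, 0.427, 0.436 and 0.379 in ICH and 0.346, 0.501 and 0.387 in EDB, a mean log2 difference of -0.24 for ICH against Sham. Mertk to Pros1 was the one of 7 ratios whose ICH and Sham libraries overlapped. The share of single genes whose ICH and Sham libraries did not overlap was 35.6%, which is not a background for ratios. Each ratio includes a member whose own ICH and Sham libraries did not overlap, so separation of the ratios is not a further result. In EDB against ICH, the libraries of Axl, Mertk and Tyro3 did not overlap either, with Tyro3 moving opposite to Axl and Mertk. Separation of the ratios to Tyro3 there is likewise not a further result.

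**Figure D4:**
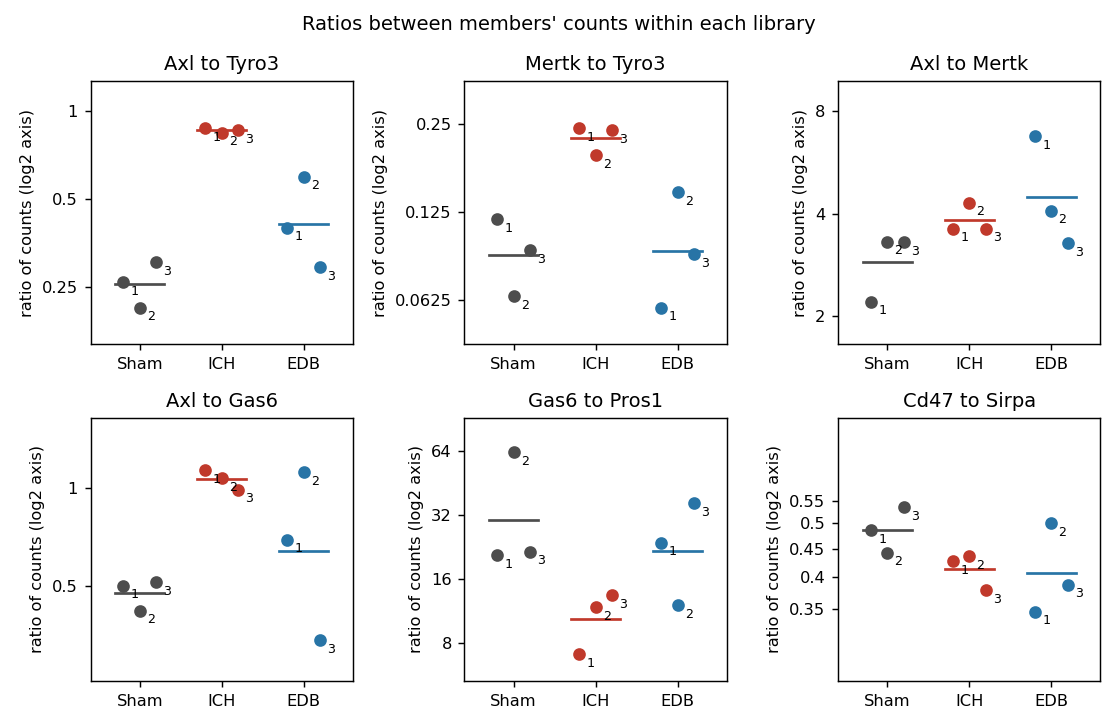
Ratio of the counts of 2 members within each library (y axis, log2 scale) in Sham, ICH and EDB (x axis). Points are libraries labelled by replicate number and lines are geometric means of 3 libraries. In the Axl to Tyro3 panel ICH lies at 0.845 to 0.874, above all Sham and EDB libraries.

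Other genes of the engulfment pathway were followed in 8 lists of 78 genes, of which 73 had a row and 68 were tested. In ICH against Sham, 26 rose, 2 fell and 40 were not called. Among all genes 18.7% were called, 11.4% higher and 7.3% lower, and these shares also apply to the counts of each list in that comparison. The median log2 fold change was 0.42 over the pathway genes and 0.01 over all tested genes.

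Other bridging and eat-me proteins had the highest median (2.43), with 7 of 9 tested genes risen and 2 not called. They included Lgals3, or galectin-3, a further Mertk ligand (6.34 ± 0.53, adjusted p = 4.29e-05), and the complement C1q chains C1qb (2.68 ± 0.22) and C1qa (2.43 ± 0.21). Of 9 tested genes for other phosphatidylserine receptors and integrins, 5 rose, 1 fell and 3 were not called. The Mfge8-binding integrin chains Itgb5 (0.87 ± 0.13, adjusted p = 0.00116) and Itgb3 (2.58 ± 0.40, adjusted p = 0.00122) rose, as did the lipid receptor Cd300lf (1.94 ± 0.34). The other rises were Megf11, a relative of Megf10 (0.77 ± 0.17), and the scavenger receptor Stab1 (1.204 ± 0.292), both chosen after their values were seen. Megf11 lost its call without ICH 2 (adjusted p = 0.0538), without Sham 2 and ICH 1 together (0.051) or without Sham 1 and Sham 3 together (0.0537). Stab1 lost it without Sham 3 (adjusted p = 0.0549), ICH 2 (0.0518), ICH 3 (0.0511) or Sham 1 and Sham 3 together (0.16). The one that fell was Adgrb1, or BAI1, a phosphatidylserine receptor abundant in neurons and astrocytes, named after its value was seen (-0.66 ± 0.12, adjusted p = 0.00313).

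Among partners of Cd47 and Sirpa, 3 of 8 rose and 5 were not called. They were the phosphatase Ptpn6, or SHP-1 (3.05 ± 0.26, adjusted p = 3.46e-05), and the adaptors Skap2 (1.47 ± 0.21) and Fyb1 (2.81 ± 0.41). Of 10 engulfment signalling genes, 3 rose and 7 were not called, led by Vav1, a guanine nucleotide exchange factor of blood cells (3.04 ± 0.26, adjusted p = 3.79e-05). The GTPase genes Rac1 (0.51 ± 0.11, adjusted p = 0.00941) and Rhog (0.77 ± 0.22, adjusted p = 0.0345) rose as well. Rac1 lost its call without Sham 1 (0.43), ICH 2 (0.47) or Sham 1 and Sham 3 together (0.28). Rhog lost it without Sham 1 (0.69), Sham 3 (0.55), ICH 1 (0.67), ICH 2 (0.69) or Sham 1 and Sham 3 together (0.26), and in a fit of the 6 compared libraries. Of 7 TAM feedback and effector genes, 2 rose and 5 were not called. Socs3, a cytokine signalling brake induced through TAM receptors, rose by 2.89 ± 0.29 (adjusted p = 7.14e-05) and the phospholipase Plcg2 by 1.65 ± 0.21.

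Among lipid-sensing receptors and their targets, 4 of 9 rose, 1 fell and 4 were not called. The mitochondrial carrier Ucp2 (2.05 ± 0.15, adjusted p = 2.01e-05), the cholesterol exporter Abca1 (1.71 ± 0.22) and the receptor-degrading ligase Mylip (1.16 ± 0.16) rose. Both nuclear receptor partners were named after their values were seen, with Rxra risen (0.46 ± 0.13, adjusted p = 0.0342) and Rxrb fallen (-0.41 ± 0.13, adjusted p = 0.0443). Rxra lost its call in 8 of 19 alternatives, among them those without Sham 1, Sham 3, ICH 2 or ICH 3, down to 0.28 and with adjusted p-values up to 0.346. Rxrb lost it in 12 of 19, among them those without Sham 1, Sham 2, ICH 1, ICH 3 or any EDB library, with log2 fold changes up to -0.26 and adjusted p-values up to 0.204. Of 8 genes for ligand maturation and receptor shedding 2 rose, with a list median of 0.08. They were the sheddase gene Adam17 (0.92 ± 0.25, adjusted p = 0.0269) and the proprotein convertase gene Furin (0.49 ± 0.14, adjusted p = 0.0316). The call of Adam17 ended without ICH 1 (0.72), ICH 2 (0.97), Sham 1 (0.93) or Sham 2 (0.73), without Sham 2 and ICH 1 together (0.53) and with the replicate block. That of Furin ended without ICH 1 (0.40), ICH 2 (0.46), Sham 1 (0.39) or Sham 3 (0.44), without Sham 1 and Sham 3 together (0.24), and with RLE scaling or the replicate block. Of 8 genes for phosphatidylserine exposure 0 were called by edgeR, with 3 at an unadjusted p under 0.05 and 1 called by DESeq2 and by limma-voom each.

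In EDB against ICH, 3 of the 68 pathway genes fell, 0 rose and 65 were not called. Among all genes 0.687% were called, 0.056% higher and 0.631% lower. The median was -0.22 over the pathway genes and -0.03 over all. The falls were those of Lgals3 (-2.44 ± 0.42, adjusted p = 0.0418), Abca1 (-1.11 ± 0.21, adjusted p = 0.0475) and Socs3 (-1.84 ± 0.27, adjusted p = 0.0244). Each lost its call without ICH 1, ICH 2, EDB 2 or EDB 3, and Lgals3 and Abca1 also without Sham 1, Sham 3 or ICH 3 and Abca1 without EDB 1. Without Sham 2 and ICH 1 together all 3 calls were lost. Abca1 also lost its call with the replicate block, and Lgals3 with no filter, in a fit of the 6 compared libraries and without Sham 1 and Sham 3 together. Over all 19 alternatives the highest adjusted p was 0.106 for Lgals3, 0.151 for Abca1 and 0.0880 for Socs3. In EDB against Sham, 18 of 68 rose, 1 fell and 49 were not called. Among all genes 7.66% were called, 4.95% higher and 2.71% lower. The median was 0.21 over the pathway genes and -0.0073 over all. Of the 18 rises, 3 were kept in all 19 alternatives and 15 were lost in at least 1. Those of Fyb1 and Calr were lost in 11, that of Cd300lf in 12 and that of Socs3 in 13. The rises included C1qb (2.05 ± 0.21, adjusted p = 0.000566), Ptpn6 (2.19 ± 0.25, adjusted p = 0.000787), Vav1 (2.02 ± 0.25) and Ucp2 (1.49 ± 0.14, adjusted p = 0.000467). Ptpn6 and Vav1 lost their calls without Sham 1 and Sham 3 together (adjusted p = 0.0628 and 0.0619). The fall was again that of Adgrb1 (-0.50 ± 0.12, adjusted p = 0.0294), lost without Sham 1, Sham 3, EDB 1, EDB 2 or EDB 3, without Sham 1 and Sham 3 together, with the replicate block and in a fit of the 6 compared libraries (adjusted p up to 0.107).

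**Figure D5:**
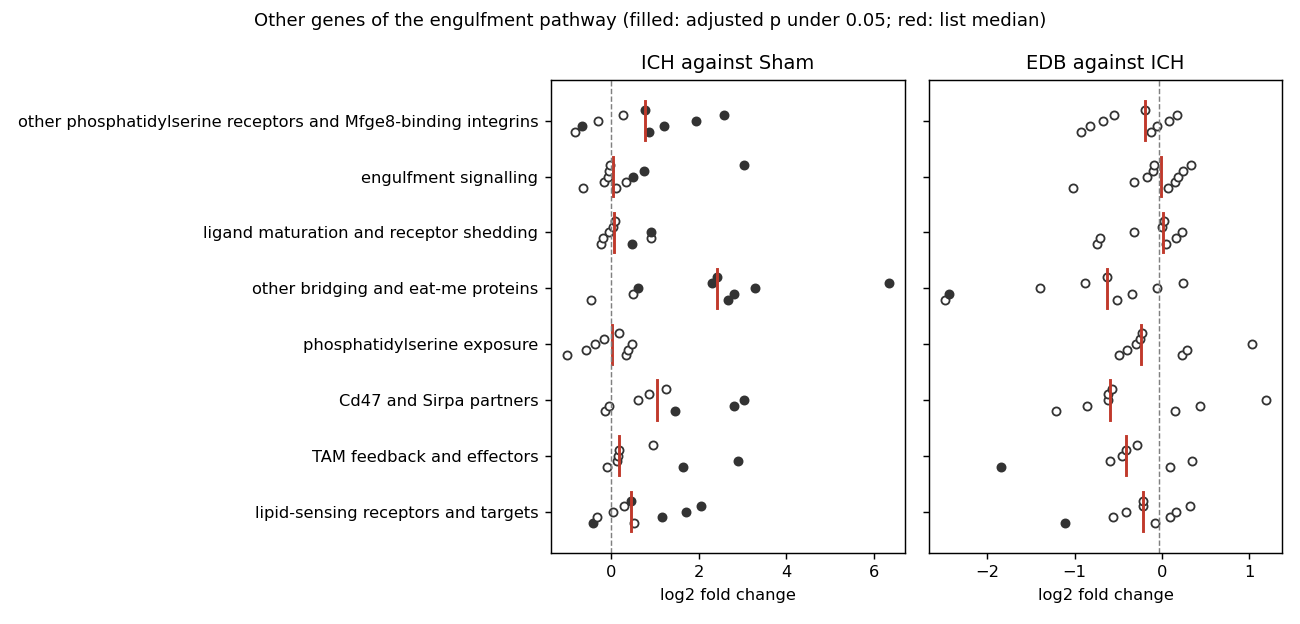
Log2 fold change (x axis) of each tested gene in 8 pathway lists (y axis) for ICH against Sham and EDB against ICH. Filled points have an adjusted p under 0.05, red lines are list medians and the dashed line is the median of all tested genes. Other bridging and eat-me proteins have the highest median in ICH against Sham, 2.43, and 3 points are filled in EDB against ICH.

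Markers of myeloid cells moved in ICH against Sham, where 11.4% of all genes were called higher and the median over all tested genes was 0.01. All 8 pan-myeloid markers rose in ICH against Sham with a median log2 fold change of 2.58, as did 5 of 8 homeostatic microglia markers with a median of 1.51, whose summed level ran from 509 to 594 CPM in Sham, from 1703 to 1713 in ICH and from 881 to 1611 in EDB. Of 6 oligodendrocyte precursor markers 5 rose as well (median 0.64), with summed levels of 732 to 875 CPM in Sham, 1082 to 1446 in ICH and 1177 to 1306 in EDB. Their part in the pathway counts was not tested.

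The pattern of each member over the 9 libraries was set beside that of 13248 other tested genes with a symbol, as the root mean square difference of log2 CPM centred on each gene's mean. Nearest to Axl were Tor4a and Ifngr1, a chain of the interferon gamma receptor, with differences of 0.0993 and 0.0997 against an Axl range of 1.39. Nearest to Mertk were Gpsm2 (0.176) and Arhgap19 (0.184), over a range of 1.35, and nearest to Tyro3 were Cisd1 (0.0751) and Glrx5 (0.0784), both for mitochondrial iron-sulfur proteins, over a range of 0.81. For the ligands, Pros1 lay nearest to Parp9 (0.154) and Trim5 (0.163) over a range of 2.94, and Gas6 to Akr7a2 (0.115) and Erg28 (0.116) over 1.03. Megf10 lay nearest to Poglut3 (0.108) and the transcription factor gene Fli1 (0.130) over a range of 1.76. Sirpa lay nearest to Rab5c (0.0643) and Abhd4 (0.0687), Cd47 to Leo1 (0.0502) and Dr1 (0.0625), and Lrp1 to Pcnx3 (0.0542) and Ap2s1 (0.0619). These are descriptions over 9 libraries that share the same 3 groups.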

How the data were processed

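Striatal RNA of 9 rat libraries was analysed from 9 files of whole-number read counts per gene, deposited by the authors with 1 library per file. The submitters' processing notes name cutadapt, HISAT2, HTSeq and limma, and the build Rnor_6.0. Tool versions, the annotation and the strand setting were not given in the sources used here. Gene names are the IDs in the files, and 16799 of 22890 matched symbols of the GRCr8 RefSeq table. Members, lists, tests and alternatives were chosen with earlier results of these data known.

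The fit used edgeR 4.0.16 under R 4.3.3. Genes were filtered with filterByExpr, scaled by TMM and fitted in 1 robust glmQLFit with a mean per group, and Benjamini-Hochberg adjustment covered all 14274 tested genes. SE values follow from the F statistic. Values named are those of all members, of up to 3 pathway genes a list with the smallest p, of genes behind small counts (chosen after their values were seen) and of the 2 nearest patterns. Total counts of 14658110 to 17659936 set the precision, and floors of 3 counts cover counting error only. No replicate pair agreed within sampling noise, with a chi-square of at least 23.9 per gene. The procedure was tested on simulated data. Alternatives used RLE or total-count scaling, other filters, DESeq2 1.42.0, limma-voom (limma 3.58.1), fewer libraries and a replicate block. No transcript lengths were used, so levels of different members were not compared. Marker sums add the CPM of genes of unequal length, so the weight of 1 gene in a sum also holds its length. A ratio of Gas6 to Mfge8 was planned and not computed, since Mfge8 had counts of 0. Leaving out the liver-positive Sham libraries, and Gfap from the astrocyte sum, were alternatives chosen after seeing the data.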

Additional observations from a re-analysis of the deposited data

How the results depend on the processing

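Of 171 member results a comparison (9 members by 19 alternatives), direction and call were kept in 154 for ICH against Sham, 167 for EDB against ICH and 161 for EDB against Sham. The number of members called in ICH against Sham, 5, was 3 to 5 when 1 library was left out, and all genes called ranged from 1769 to 2624. In EDB against ICH, 0 members became 2 with DESeq2 and 0 to 2 without 1 library. All genes called there, 98, became 696 with DESeq2, 182 with limma-voom, 58 with the replicate block, 39 without Sham 2 and ICH 1 and 8 to 321 without 1 library. In EDB against Sham, 1 member became 2 with DESeq2, 0 without Sham 1 and Sham 3 and 1 to 2 without 1 library. All genes called there, 1094, became 1796 with DESeq2, 1978 without Sham 2 and ICH 1, 201 without Sham 1 and Sham 3 and 508 to 1661 without 1 library.

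Reversals concerned results that were not called. In ICH against Sham, Gas6 was -0.052 without Sham 1 and Sham 3. Lrp1 was -0.16 there, and ranged from -0.023 (without ICH 2; -0.02 without Sham 1) to 0.19 when 1 library was left out. In EDB against Sham, leaving out 1 library gave -0.016 to 0.46 for Mertk and -0.11 to 0.18 for Cd47, both lowest without EDB 2. Tyro3 was -0.12 without Sham 1 and Sham 3. Lrp1 was 0.011 with total-count scaling, 0.088 without Sham 2 and ICH 1, and -0.096 to 0.088 without 1 library, positive without Sham 2 or EDB 2 (0.07). Causes were not tested. The fit without Sham 1 and Sham 3 leaves 1 Sham library, assumed to vary like the other groups.

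Same-numbered libraries of different groups did not deviate together (correlations from -0.31 to 0.25 over 9 pairs, 2 of them over 0.1), and 2 of 9 libraries correlated best with their own number, so the numbers were not taken as pairs. With the replicate block 5, 0 and 1 members were called in the 3 comparisons, as without it, and 2093, 58 and 801 of all genes. Mfge8 was not tested because the low-count filter removed it.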
